A study of Mus musculus with 12 samples.

Results

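Genes of the interferon response and of nucleic acid sensing were followed through microglia, the resident macrophages of the CNS, that had been sorted from adult and aged mice. The genes were 26 of the 770 measured on a NanoString nCounter neuroinflammation panel, which counts target RNA directly with barcoded probes and without amplification. They were chosen by name for their known place in the pathway. The rule uses names and no measured value, although earlier results of these data were known when it was made. The samples held fixed microglia from C57B6 mice, and the labels call mice and cells untreated. The adult group (samples 1, 4 and 10, mice of 12 to 20 weeks) was not separated by ERK1/2 phosphorylation, whereas cells from aged mice (over 80 weeks) were sorted by phosphorylation of ERK1/2 at Thr202/Tyr204 into P-ERK1/2 High (samples 2, 5, 7 and 8) and P-ERK1/2 Low (samples 3, 6, 9 and 12). Each sample combined the CNS of a male and a female mouse, and according to the study's methods the cells passed CD11b beads and a YFP+, CD45 intermediate, Ly6G- gate, with YFP driven from the *Cx3cr1* promoter. The study's account gives tamoxifen treatment for mice of this reporter line, shortly before analysis in adult and many months before in aged animals, which the labels do not mention. The sample type field reads the same for all 12 samples, so the groups were taken from the titles. A further adult sample, number 11, was marked by the submitters as excluded for poor quality and was left out of the groups. Whether High and Low samples came from the same mice is not given in the labels. Age and the P-ERK1/2 gate cannot be told apart in the comparisons with adult cells. Separate samples are taken as replicates throughout, so each p-value weighs a difference between groups against the spread between these samples.

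Interferon signalling begins when foreign or misplaced nucleic acid is recognised in the cytosol, by RIG-I and MDA5 for RNA or by cGAS for DNA, and the adaptors MAVS and STING pass the signal to interferon regulatory factors (IRFs). Secreted type I interferon then binds the IFNAR receptor and induces antiviral effectors, chemokines and the immunoproteasome. Microglia express much of this machinery, and a set of interferon-responsive microglia is a known feature of the ageing and injured CNS.

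Values below are the deposited normalized values, in which every sample was multiplied by 1 factor that brought its housekeeping genes to the same geometric mean. The total count of the 770 genes ranged from 650965 to 1539936 for P-ERK1/2 High, from 123798 to 157209 for Low and from 137980 to 326575 for adult samples. In bulk samples such as these, fewer cells and less RNA per cell cannot be told apart. A value was taken as above background when it exceeded the mean plus 2 SD of the 8 negative control probes of its sample, a level of 26.1 to 39.5 normalized units in High, 69.2 to 117 in Low and 37.9 to 95.1 in adult samples. At these background levels, 18 of the 26 genes were above background in all 4 High samples, 12 in all 4 Low samples and 15 in all 3 adult samples, and 10 were above it in no Low sample. For those 10 genes a low value in the Low group means that the RNA was not detectable at this depth. Of the 8 microglial markers used to check identity, which include *Tmem119*, *Cx3cr1* and *Csf1r*, 8 were above background in every High sample, 5 in every adult sample and 2 in every Low sample. *P2ry12* and *Gpr34* were above background in no Low sample, while the summed level of the 8 markers was 3371 to 3692 in Low, 3487 to 3801 in adult and 2851 to 3544 in High samples. Their single levels were less alike by the 2 criteria given next. In Low against adult 3 of the 8 were called lower and 0 higher, beside 2.73% and 8.05% of the panel. By the wider criterion 6 were lower and 1 higher there, beside 7.27% and 18.8%. In High against Low 4 were called higher and 0 lower, beside 28.2% and 9.61% of the panel. In High against adult 1 was called higher and 2 lower, beside 29.2% and 7.66%.

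Groups were compared in pairs with limma on log2(value + 1), so fold changes of low genes are understated. A gene was called changed at p under 0.01 with a log2 fold change beyond 1, and a wider criterion, a Benjamini-Hochberg adjusted p under 0.05 over the 770 genes with no fold limit, was read beside it. In P-ERK1/2 High against Low, 3 of the 26 genes were called higher and 0 lower, 11.5% in all, beside 37.8% of the panel (28.2% higher and 9.61% lower). By the wider criterion 7 were higher and 5 lower, beside 52.2% of the panel (34.0% and 18.2%). In P-ERK1/2 Low against adult, 2 genes were called higher and 0 lower (7.69%), beside 10.8% of the panel (8.05% and 2.73%), and by the wider criterion 4 were higher and 0 lower, beside 26.1% (18.8% and 7.27%). Beside these 0 genes called lower by limma, 5 in the first comparison and 1 in the second were lower at an unadjusted p under 0.05, and 0 were called in either by a plain unequal-variance test. In P-ERK1/2 High against adult, 8 were called higher and 2 lower (38.5%), beside 36.9% of the panel (29.2% and 7.66%), and by the wider criterion 8 were higher and 4 lower, beside 48.2% (34.8% and 13.4%). The groups did not overlap for 10, 5 and 12 of the 26 genes in these comparisons, beside 49.4%, 36.5% and 50.3% of the panel. The median log2 difference of the 26 genes was 0.26, 0.08 and 0.27 in the same order, and that of all 770 genes was 0.26, 0.10 and 0.35. Without High sample 7, 5 of the 26 genes were called higher and 2 lower in the first comparison, beside 289 of the 770. The 3 comparisons share samples and are not independent of each other.

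**Figure D1:**
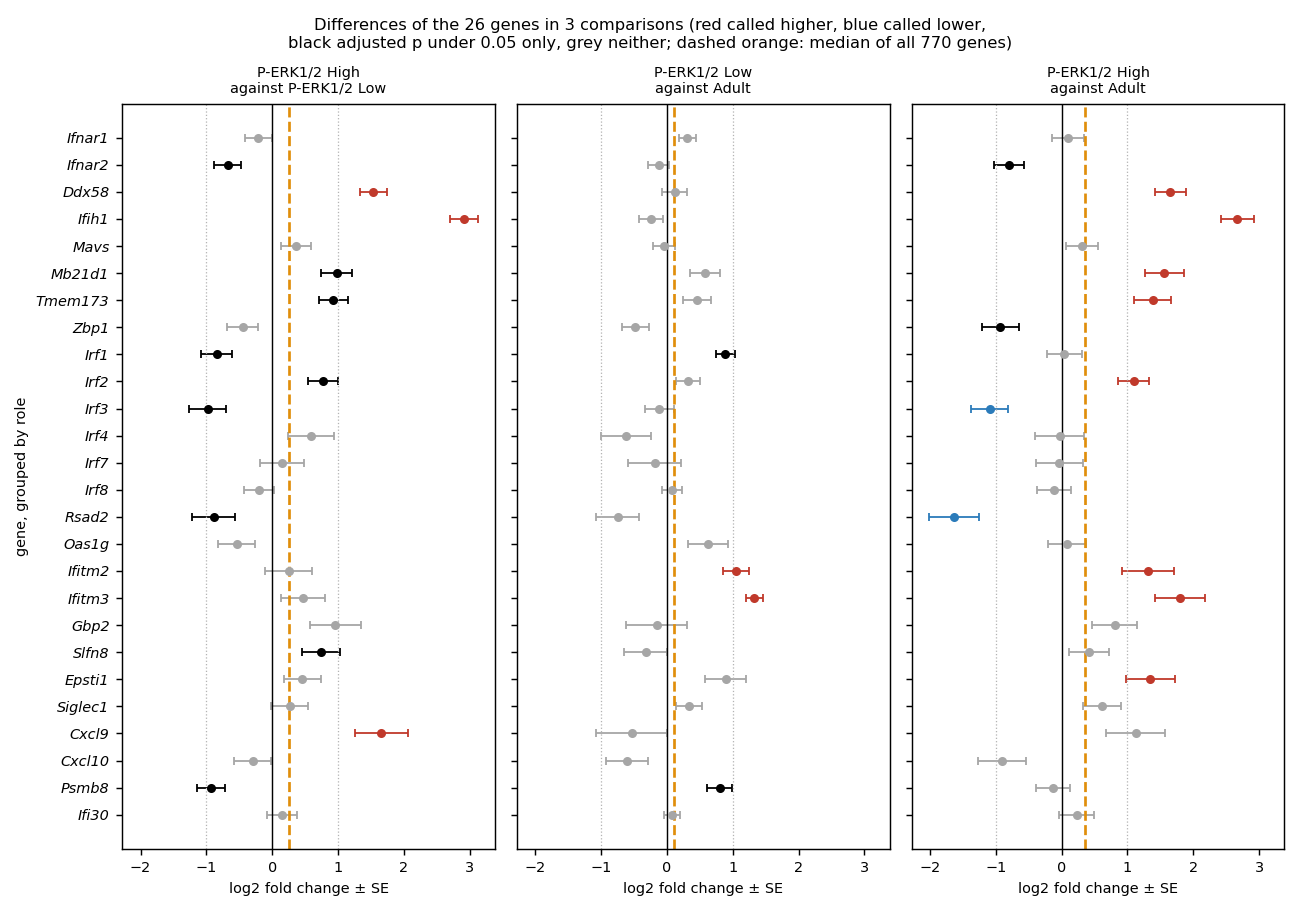
Log2 fold change ± SE (horizontal axis) of the 26 genes (vertical axis, grouped by role) in the 3 comparisons, from limma with 3 or 4 samples a group. Red and blue points were called higher and lower, black points passed the adjusted p of 0.05 only, grey points neither, and the dashed line is the median of all 770 genes. *Ifih1* and *Ddx58* lie far to the right in both comparisons of P-ERK1/2 High, while *Ifitm2* and *Ifitm3* are the called genes in P-ERK1/2 Low against adult.

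Both sensors of cytosolic RNA were called higher in P-ERK1/2 High cells, and *Ifih1* gave the largest difference of the 26 genes. *Ifih1* encodes MDA5, a receptor for long double-stranded RNA, and read 465, 618, 632 and 498 in High samples 2, 5, 7 and 8, against 61.0, 87.6, 72.2 and 69.7 in Low samples 3, 6, 9 and 12 and 90.8, 69.9 and 98.8 in adult samples 1, 4 and 10. The High samples lay above all others without overlap, and only 1 of 4 Low and 2 of 3 adult samples exceeded background. The log2 fold change was 2.91 ± 0.22 (SE, n = 4 and 4, adjusted p = 4.9e-06) against Low and 2.67 ± 0.25 (n = 4 and 3, adjusted p = 3.8e-05) against adult. *Ddx58*, which encodes RIG-I, the receptor for RNA with a 5′ triphosphate, read 427, 414, 356 and 400.4 in High samples, 115, 140.2, 128 and 168 in Low samples and 127, 106 and 148 in adult samples. All of these were above background, and again High did not overlap with the other groups. Its log2 fold change was 1.54 ± 0.21 against Low (adjusted p = 0.00011) and 1.65 ± 0.24 against adult (adjusted p = 0.00027), whereas Low differed from adult by 0.12 ± 0.18 (adjusted p = 0.68). The calls of both RNA sensors against Low held without each sample in turn, under each scaling and background setting tried and by the plain test.

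The excluded adult sample must be set beside these values. Sample 11 had a total count of 1464433, within the range of the High samples and above every kept adult sample, and it read 704 for *Ifih1* and 443 for *Ddx58*, above the highest High sample. With sample 11 counted as adult, the difference of High against adult was 1.91 on the log2 scale for *Ifih1* (adjusted p = 0.17) and 1.20 for *Ddx58* (adjusted p = 0.17). For all 26 genes the adjusted p was then 0.15 or above in both comparisons with adult, so that no difference from adult passed the wider criterion. By the fold limit and unadjusted p, 1 gene, *Mb21d1*, was called higher (1.255, adjusted p = 0.15), from values undetected in the kept adult samples. The comparison of High with Low does not use that sample. Total counts and the levels of both sensors were high in the same samples, and the part of depth or RNA quality in the difference was not tested.

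The promoters of both RNA sensors carry the core letters of the interferon-stimulated response element, a motif known from the promoters of interferon-induced genes. The windows below, from RefSeq on build GRCm38.p6, run from 250 bases before to 50 bases after the transcript start and are shown 5′ to 3′ on the strand of the gene. They are given because both sensors rose in P-ERK1/2 High cells, and capitals mark the core (GAAA, any 2 bases, GAAA) or its reverse complement. *Ddx58* lies at chr4:40239776-40240075 on the minus strand and *Ifih1* at chr2:62646206-62646505 on the minus strand.
Ddx58: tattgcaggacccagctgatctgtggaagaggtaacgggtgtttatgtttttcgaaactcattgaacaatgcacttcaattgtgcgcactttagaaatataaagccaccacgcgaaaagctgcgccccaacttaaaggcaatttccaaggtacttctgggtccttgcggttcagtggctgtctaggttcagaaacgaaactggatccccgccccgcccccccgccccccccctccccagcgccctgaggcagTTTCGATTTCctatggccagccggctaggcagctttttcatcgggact
Ifih1: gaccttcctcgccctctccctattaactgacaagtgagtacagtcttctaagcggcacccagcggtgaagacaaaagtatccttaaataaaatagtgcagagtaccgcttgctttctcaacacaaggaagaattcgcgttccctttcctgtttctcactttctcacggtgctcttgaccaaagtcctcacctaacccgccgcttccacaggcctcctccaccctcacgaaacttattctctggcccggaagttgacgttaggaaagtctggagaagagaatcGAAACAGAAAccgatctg
In both genes the match lies just downstream of the annotated start, at bases 3 to 12 of *Ddx58* and 33 to 42 of *Ifih1*. There were 26 windows for 23 of the genes, matched by symbol or synonym, with more than 1 for *Irf1*, *Irf8* and *Slfn8*. The core, searched on both strands, was present in 11 of these windows (42.3%), from 10 genes, and in 3.44% of 32851 mouse promoter windows of the same length. A match is a description of the sequence and not evidence of a bound site.

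The normalized values of both DNA-sensing genes were also highest in P-ERK1/2 High samples, but both were poorly detected in the other groups. *Tmem173*, which encodes the adaptor STING, read 119, 162, 113 and 162 in High samples, 64.4, 80.6, 77.6 and 65.6 in Low samples and 72.6, 43.1 and 44.5 in adult samples, of which 1 of 4 Low and 1 of 3 adult samples exceeded background. *Mb21d1*, which encodes the DNA sensor cGAS, read 71.8, 60.0, 41.6 and 59.6 in High samples, 27.1, 35.1, 24.1 and 28.7 in Low samples and 15.9, 15.1 and 27.2 in adult samples, and none of the Low or adult values exceeded background. High did not overlap with either group for both genes. For *Mb21d1*, however, the background level of Low samples (69.2 to 117) lay above 3 of its 4 High values, and that of adult samples (37.9 to 95.1) spanned all 4. No fold bound could be given in either comparison, and its order between High and the other groups was not established at this depth. Against adult, *Tmem173* was called higher by 1.39 ± 0.28 on the log2 scale (adjusted p = 0.0026), and the fit also called *Mb21d1* higher (adjusted p = 0.0017). Against Low, the fitted differences of 0.93 ± 0.22 (adjusted p = 0.004) and 0.98 ± 0.23 (adjusted p = 0.0042) stayed just under the fold limit, and both passed it without High sample 7. Raising counts below 40 to 40 before scaling turned the *Mb21d1* difference to -1.20 against Low and -0.355 against adult, since it fills the shallow samples up to the floor, and took that of *Tmem173* against Low to 0.02. The call of *Tmem173* against adult ended under that floor, under median-of-ratios scaling, by the plain test and with sample 11 counted as adult (1.00, adjusted p = 0.24). Sample 11 read 152 and 45.0 for the pair.

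The adaptor *Mavs* and the sensor *Zbp1* did not share this pattern. *Mavs*, the mitochondrial adaptor of RIG-I and MDA5, ranged from 159 to 328 over the 11 samples and was above background in all of them. Its High values of 257, 328, 209 and 247 overlapped with the Low values of 159, 221, 206 and 222 (log2 difference 0.36 ± 0.23, adjusted p = 0.2). *Zbp1*, a sensor of Z-form nucleic acid that can start necroptosis, read 39.0, 29.3, 42.7 and 25.3 in High, 47.4, 38.6, 45.5 and 53.3 in Low and 63.5, 50.1 and 84.0 in adult samples. It was lower in High than in adult cells by the wider criterion (-0.93 ± 0.28, adjusted p = 0.021), though not without High sample 8, adult sample 1 or adult sample 10 (adjusted p = 0.061 to 0.10), by the plain test, or with sample 11 counted as adult (-0.52, adjusted p = 0.48), with 2 of 4 High and 2 of 3 adult samples above background and Low samples all below it.

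**Figure D2:**
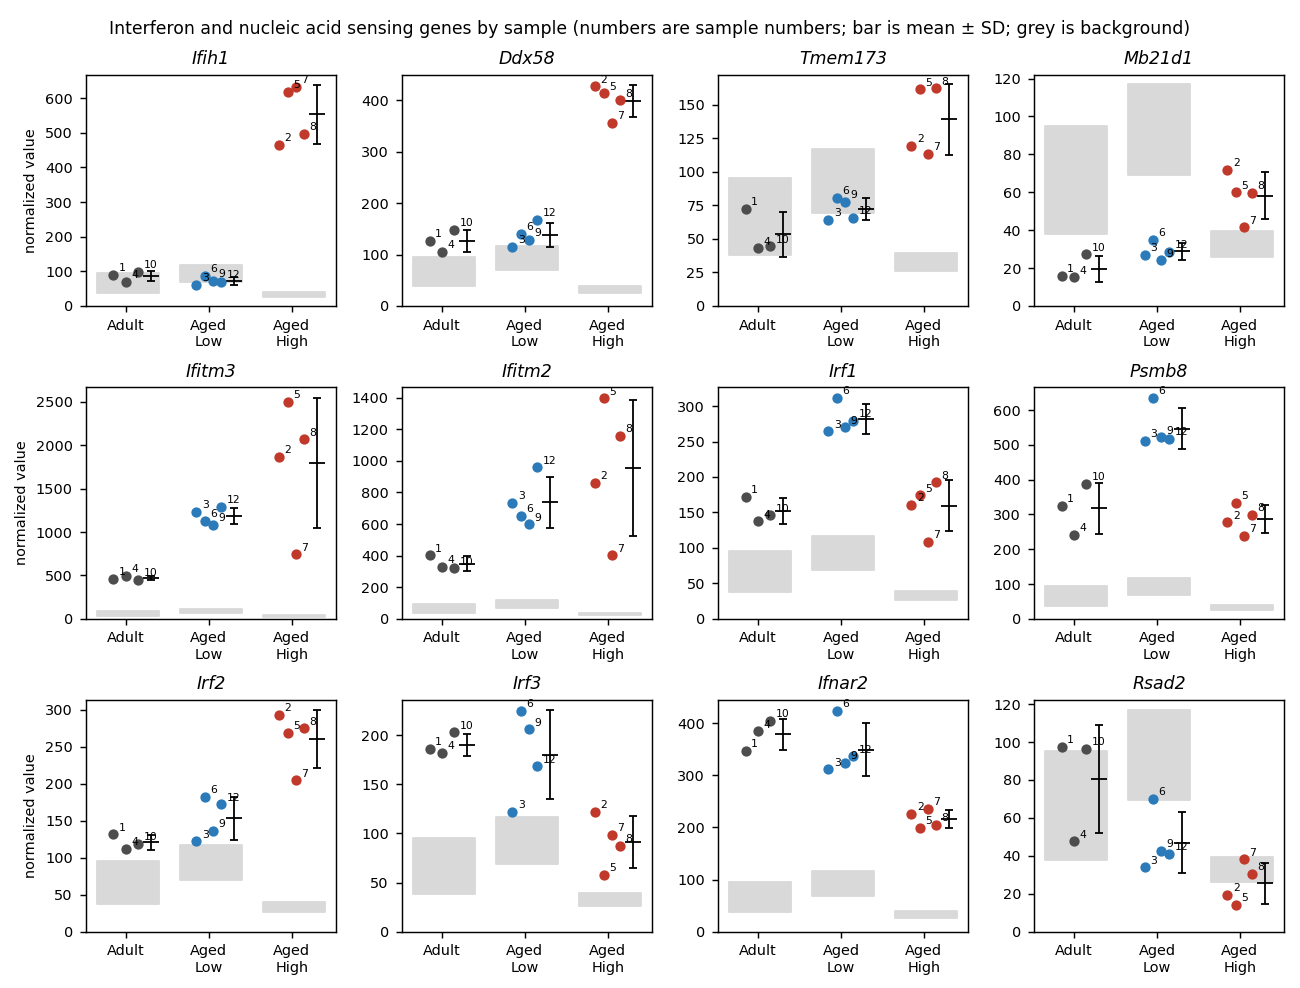
Normalized value (vertical axis, linear, starting at 0) of 12 of the 26 genes in each sample of the adult, aged P-ERK1/2 Low and aged P-ERK1/2 High groups. Numbers are sample numbers, the bar is the mean ± SD, and the grey band is the range of the background level over the samples of a group. *Ifih1*, *Ddx58* and *Tmem173* are high in the 4 High samples alone, *Irf1* and *Psmb8* are high in the 4 Low samples alone, and High sample 7 lies apart for *Ifitm2* and *Ifitm3*.

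The receptor was measured well above background in every sample. *Ifnar1*, which encodes the signalling chain that binds TYK2, ranged from 554 to 834 and differed between High and Low by -0.21 ± 0.21 on the log2 scale (adjusted p = 0.4). *Ifnar2*, which encodes the chain with the higher affinity for interferon, read 226, 199, 236 and 205 in High samples, 312, 424, 324 and 336 in Low samples and 347, 384 and 405 in adult samples. Every High sample lay below every other sample. The log2 difference was -0.68 ± 0.20 against Low (adjusted p = 0.014) and -0.80 ± 0.23 against adult (adjusted p = 0.014), both under the fold limit. The first missed the adjusted p of 0.05 without High sample 8 (0.051) or Low sample 6 (0.057), and the second without adult sample 10 (0.069) or with sample 11 counted as adult (-0.69, adjusted p = 0.19).

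The IRFs went in different directions. *Irf1*, a transcription factor induced by interferon-gamma and NF-κB signals, read 264, 312, 270.2 and 279 in Low samples, above 161, 174, 109 and 193 in High samples and 172, 137 and 146 in adult samples without overlap. It was higher in Low than adult cells by 0.89 ± 0.14 (adjusted p = 0.0041) and lower in High than in Low cells, with a log2 difference of -0.85 ± 0.23 (adjusted p = 0.0085), while High against adult gave 0.04 ± 0.27 (adjusted p = 0.91). With sample 11 counted as adult, Low against adult gave 0.81 (adjusted p = 0.15). *Irf2*, known as an antagonist of IRF1 at shared sites, was highest in High cells instead. It read 293, 269, 204 and 275 in High samples, 122, 182, 136 and 172 in Low samples and 132, 112 and 119 in adult samples, and rose against adult by 1.09 ± 0.24 (adjusted p = 0.0041) with 0.77 ± 0.23 against Low (adjusted p = 0.013). Its call against adult ended under median-of-ratios scaling, quantile normalization, a pseudocount of 20 and with sample 11 counted as adult (0.82, adjusted p = 0.23), and its difference from Low missed the wider criterion under median-of-ratios scaling (0.50, adjusted p = 0.060) and quantile normalization (0.475, adjusted p = 0.053). *Irf3*, the factor that MAVS and STING activate to induce interferon-beta, read 122, 57.9, 98.8 and 87.4 in High samples, 122, 224, 206 and 168 in Low samples and 186, 182 and 203 in adult samples. It was called lower than in adult cells, with a log2 difference of -1.09 ± 0.28 (adjusted p = 0.0096), and against Low the difference was -0.98 ± 0.28 (adjusted p = 0.011), where High sample 2 and Low sample 3 nearly met. Sample 11 had the lowest *Irf3* value of all, 20.9, and with it the difference from adult was -0.31 (adjusted p = 0.80). The call against adult also ended without High sample 5, adult sample 1 or adult sample 10, with a pseudocount of 20, with no scaling and by the plain test, and the difference from Low missed the wider criterion with 10 counts subtracted (adjusted p = 0.052).

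The other 3 IRFs gave no called difference. *Irf7*, the factor that amplifies the type I response and is itself interferon-induced, read 34.1, 74.3, 46.0 and 45.6 in High samples, 23.7, 52.6, 66.9 and 41.0 in Low samples and 56.7, 29.1 and 71.7 in adult samples, with full overlap and log2 differences of 0.15 ± 0.34, -0.19 ± 0.41 and -0.03 ± 0.36. Its adjusted p was 0.72 or above, and no Low sample exceeded background. *Irf8*, a lineage factor of microglia, ranged from 159 to 269 in the 11 samples and differed by -0.20 ± 0.23 between High and Low (adjusted p = 0.48). *Irf4*, best known from lymphocytes and dendritic cells, was above background in no Low or adult sample and in 3 of 4 High samples, and gave a log2 difference of 0.58 ± 0.35 between High and Low (adjusted p = 0.18).

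Of the antiviral effectors the IFITM genes had the highest normalized values, and they encode membrane proteins that block the fusion of enveloped viruses. *Ifitm3* read 463, 495 and 452 in adult samples, 1233, 1129, 1086 and 1288 in Low samples and 1865, 2499.5, 745 and 2068 in High samples. *Ifitm2* read 402, 329.6 and 319 in adult samples, 735, 652, 599 and 959.9 in Low samples and 859, 1397, 401 and 1161 in High samples. Both aged groups lay above adult for *Ifitm3*, and for *Ifitm2* they did so except for High sample 7, which at 401 just failed to reach the highest adult sample at 402. *Ifitm3* rose by 1.33 ± 0.13 (adjusted p = 0.0006) in Low and 1.80 ± 0.38 (adjusted p = 0.0035) in High against adult, a 2.51-fold and 3.48-fold difference. *Ifitm2* rose by 1.06 ± 0.20 (adjusted p = 0.0071) and 1.31 ± 0.39 (adjusted p = 0.019). The difference between High and Low, 0.47 ± 0.34 and 0.25 ± 0.36, passed neither criterion (adjusted p = 0.26 and 0.56). Without High sample 7 it was 0.85 for *Ifitm3*, which then passed the wider criterion (adjusted p = 0.0047), and 0.62 for *Ifitm2* (adjusted p = 0.053). Sample 11, an adult sample, read 2342 for *Ifitm3* and 1319 for *Ifitm2*, and with it counted as adult neither gene was called in either comparison (Low against adult 0.75 and 0.58 on the log2 scale, adjusted p = 0.53 and 0.60). In Low against adult neither was called under quantile normalization or with no scaling, and *Ifitm2* was not called under median-of-ratios scaling, with a spread shared by 11 samples, without Low sample 12 or without adult sample 10. In High against adult neither was called under quantile normalization or by the plain test, and *Ifitm2* was not called under median-of-ratios scaling or with 10 counts subtracted. There *Ifitm2* was called without High sample 7 but not without any 1 of the other 6 samples.

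*Ifitm2* and *Ifitm3*, both on chromosome 7, carry the same response element core near their starts, and *Ifitm3* has it at more than 1 position together with the gamma-activated site letters TTCNNNGAA, a motif known from interferon-gamma-induced genes. The windows are shown because both genes rose in the aged groups, beside that of *Rsad2*, which holds the same core and was lower in High than in adult cells. They lie at chr7:140955912-140956211, chr7:141010695-141010994 and chr12:26456403-26456702, all on the minus strand, and capitals mark the matches, which overlap at the end of *Ifitm3*.
Ifitm2: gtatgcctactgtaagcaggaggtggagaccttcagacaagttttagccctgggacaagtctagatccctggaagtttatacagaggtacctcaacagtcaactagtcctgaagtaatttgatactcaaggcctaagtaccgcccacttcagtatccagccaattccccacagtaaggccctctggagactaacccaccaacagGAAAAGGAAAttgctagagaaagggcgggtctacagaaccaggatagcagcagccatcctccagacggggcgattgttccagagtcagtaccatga
Ifitm3: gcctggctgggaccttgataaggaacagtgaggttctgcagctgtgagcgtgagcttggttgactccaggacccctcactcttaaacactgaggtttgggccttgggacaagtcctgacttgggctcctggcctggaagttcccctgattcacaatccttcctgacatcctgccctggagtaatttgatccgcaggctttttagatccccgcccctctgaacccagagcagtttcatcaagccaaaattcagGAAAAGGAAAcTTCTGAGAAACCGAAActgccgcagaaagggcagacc
Rsad2: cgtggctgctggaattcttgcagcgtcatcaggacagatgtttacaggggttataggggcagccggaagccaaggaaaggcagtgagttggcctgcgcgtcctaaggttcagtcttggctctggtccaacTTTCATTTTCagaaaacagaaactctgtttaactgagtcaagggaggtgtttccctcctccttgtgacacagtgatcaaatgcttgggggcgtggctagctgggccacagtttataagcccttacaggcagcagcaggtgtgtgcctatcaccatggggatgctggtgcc
The same core thus stood in the windows of genes that were called higher and of a gene called lower, and in those of *Cxcl10*, *Gbp2* and *Oas1g*, which passed neither criterion in any comparison of all kept samples.

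*Rsad2* encodes viperin, an antiviral enzyme that is among the most interferon-inducible genes known. It read 97.6, 47.7 and 96.4 in adult samples, 33.9, 70.1, 42.8 and 41.0 in Low samples and 19.5, 14.3, 38.2 and 30.4 in High samples, so that all adult but no Low and 2 of 4 High samples exceeded background. High was called lower than adult, with a log2 difference of -1.64 ± 0.38 (adjusted p = 0.0054) and no overlap between the groups. The excluded adult sample 11 read 14.7, below background, and with it counted as adult the difference was -1.06 (adjusted p = 0.32). The call against adult also ended by the plain test, with no scaling and with a floor of 40 counts. Against Low the difference was -0.89 ± 0.33 (adjusted p = 0.039), between Low values below background and overlapping High values. It missed the wider criterion without any 1 of 5 samples, High samples 2 and 5 and Low samples 6, 9 and 12 (adjusted p = 0.057 to 0.12), and it turned to 0.34 when 10 counts were subtracted before scaling. *Oas1g*, an oligoadenylate synthetase, was above background in none of the 11 samples, with values of 13.5 to 45.1, and so its level was not detectable at this depth.

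Among the other effectors, *Epsti1*, an interferon-induced gene, was called higher in High than in adult samples (1.35 ± 0.37, adjusted p = 0.013), but of the High and adult samples only High sample 5 at 40.7 exceeded background, and no fold bound could be given. The call ended without that sample, without adult sample 10, under median-of-ratios scaling, with a pseudocount of 20, by the plain test and with sample 11 counted as adult (0.80, adjusted p = 0.42). *Slfn8*, of the Schlafen family, was higher in High than Low by the wider criterion (0.74 ± 0.28, adjusted p = 0.046) with values of 127, 167, 221 and 166 against 142, 112, 99.0 and 61.5. It missed that criterion without any 1 of 6 samples, High samples 5, 7 and 8 and Low samples 6, 9 and 12 (0.51 to 0.80, adjusted p = 0.062 to 0.13), nor did it pass under median-of-ratios scaling, quantile normalization, the floor of 40 counts or the plain test. *Gbp2*, a guanylate-binding protein that attacks the vacuoles of intracellular pathogens, read 31.7, 66.5, 53.9 and 52.0 in High samples, 3 of them above background, against 13.6 to 56.1 in Low samples (log2 difference 0.96 ± 0.39, adjusted p = 0.055). *Siglec1*, a sialic acid receptor of macrophages often read as an interferon marker, was 102, 114, 55.0 and 100.1 in High, 54.2, 94.7, 80.3 and 73.8 in Low and 56.7, 61.7 and 56.8 in adult samples and passed neither criterion in any comparison. Without High sample 7 its difference of High from adult was 0.84 and passed the wider criterion (adjusted p = 0.0082).

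**Figure D3:**
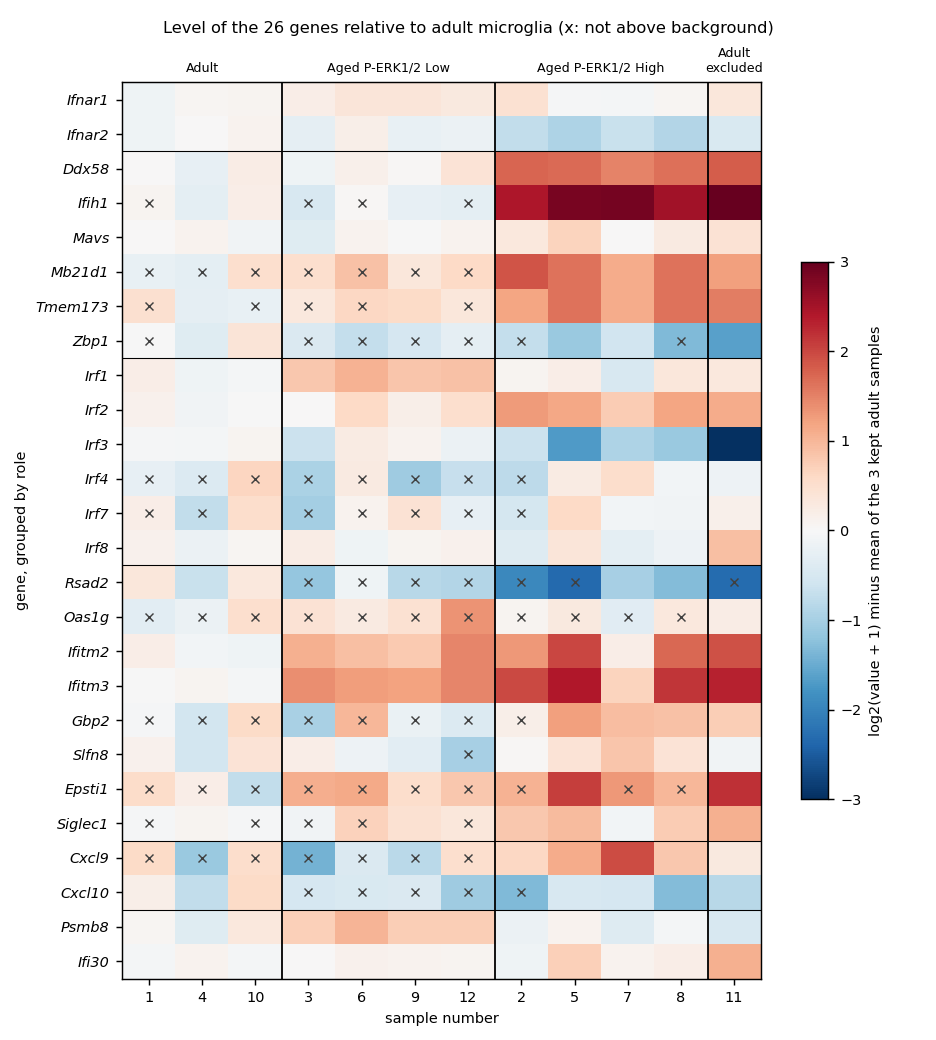
Level of each of the 26 genes (rows, grouped by role) in the 12 samples (columns, by sample number), as log2(value + 1) minus the mean of the 3 kept adult samples, with colours limited to differences of 3 either way. Crosses mark values not above background, which are frequent in the adult and Low columns. The column of the excluded adult sample 11 is red for *Ddx58*, *Ifih1*, *Ifitm2* and *Ifitm3*, as most High columns are.

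The chemokines that draw CXCR3-bearing T cells gave 1 called difference. *Cxcl9*, induced mainly by interferon-gamma, read 45.0, 63.6, 113 and 50.7 in High samples, all above background, and 10.2, 21.0, 16.1 and 41.0 in Low samples and 43.1, 12.8 and 42.0 in adult samples, none above it. It was called higher in High than in Low (1.66 ± 0.40, adjusted p = 0.0046) with no overlap, although Low sample 12 at 41.0 came close to High sample 2 at 45.0, and it was not called against adult (1.12 ± 0.45, adjusted p = 0.061). The call against Low was not made by the plain test, and raising low counts to 40 turned the difference to -1.045. The background level of Low samples, 69.2 to 117, lay above 3 of the 4 High values, so no fold bound could be given and the order was not established at this depth. *Cxcl10*, which type I interferon also induces, read 97.6, 51.2 and 128 in adult, 61.0, 63.1, 64.2 and 41.0 in Low and 34.1, 61.5, 60.6 and 34.2 in High samples and passed neither criterion in any comparison. Without High sample 7 its difference of High from adult was -1.04 and passed the wider criterion (adjusted p = 0.046), without being called.

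Of the 2 antigen processing genes, 1 was highest in the Low group. *Psmb8*, the catalytic immunoproteasome subunit LMP7, read 512, 635, 522 and 517 in Low samples against 278, 333, 239 and 299 in High and 324, 241 and 388 in adult samples, and Low lay above all others without overlap. The log2 difference was 0.80 ± 0.19 in Low against adult (adjusted p = 0.019) and -0.93 ± 0.21 in High against Low (adjusted p = 0.0029), with -0.13 ± 0.26 in High against adult (adjusted p = 0.71). In Low against adult the adjusted p was 0.054 without adult sample 1, 0.065 under quantile normalization, 0.14 by the plain test and 0.15 with sample 11 counted as adult. *Ifi30*, the lysosomal thiol reductase GILT, ranged from 1179.6 to 2114 and passed neither criterion in any comparison. *Irf1* and *Psmb8* were the pair of genes higher in Low than in both other groups by the wider criterion when the 3 kept adult samples were used, and neither was higher than adult by it with sample 11 added. TTCNNNGAA is marked in capitals in the windows at chr11:53769764-53770063 and chr17:34197945-34198244, both on the plus strand. *Irf1* has a further window, of a start downstream, which does not hold these letters and is not shown.
Irf1: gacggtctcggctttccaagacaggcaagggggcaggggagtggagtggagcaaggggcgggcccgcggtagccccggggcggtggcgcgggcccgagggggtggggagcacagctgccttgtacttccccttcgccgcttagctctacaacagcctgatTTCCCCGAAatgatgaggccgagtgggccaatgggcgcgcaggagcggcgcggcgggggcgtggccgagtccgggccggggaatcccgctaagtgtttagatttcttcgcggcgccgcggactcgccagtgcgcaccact
Psmb8: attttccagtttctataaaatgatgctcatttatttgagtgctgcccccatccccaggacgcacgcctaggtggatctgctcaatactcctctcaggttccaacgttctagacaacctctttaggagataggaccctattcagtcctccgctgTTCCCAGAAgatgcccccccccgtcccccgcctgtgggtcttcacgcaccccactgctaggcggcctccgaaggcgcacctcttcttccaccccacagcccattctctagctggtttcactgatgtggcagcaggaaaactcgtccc
TTCNNNGAA, which reads alike on both strands, occurred in 7 of the 26 windows (26.9%), from 7 genes, and in 8.30% of all promoter windows, and *Ifnar1*, *Ifnar2*, *Irf2*, *Irf8* and *Ifitm3* also held it.

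The signalling partners of the pathway changed about as often as the panel did. Of 19 such genes, 6 were called higher and 2 lower in High against Low, 42.1% beside the 37.8% of the panel (28.2% higher and 9.61% lower), and their median log2 difference was -0.03 beside 0.26. Those higher were *Irak1* at 1.88, *Ep300* at 1.71, *Tlr7* at 1.60, *Il10rb* at 1.43 and *Rela* at 1.41 on the log2 scale, and *Traf6*. *Traf6* was above background in no Low sample and was at least 3.04-fold higher in High (adjusted p = 0.0016). That bound, and those given next for High against Low, set the mean log2 value of High samples against the mean log2 background level of the group without detection. *Tlr7* is the endosomal sensor of single-stranded RNA, *Irak1* and *Traf6* act below it, and *Rela* encodes the NF-κB subunit p65. Those lower were *Casp8* (-1.23) and *Ikbkg* (-1.11), which encode a protease of cell death signalling and the regulatory subunit NEMO of the IκB kinase complex. In Low against adult 0 of the 19 were called by limma or by the plain test, beside 10.8% of the panel called by limma, with 5 at an unadjusted p under 0.05, and *Ikbke*, above background in 1 of 4 Low and 1 of 3 adult samples, passed the wider criterion (adjusted p = 0.024). In High against adult 5 were called higher and 2 lower, 36.8% beside 36.9% of the panel.

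Of 15 further interferon-induced genes, 6 were called higher and 2 lower in High against Low, 53.3% beside 37.8% of the panel, and 9 were above background in no Low sample. *Ch25h*, which makes the antiviral oxysterol 25-hydroxycholesterol, averaged 212 ± 38.7 (SD, n = 4) in High and 31.4 ± 8.95 (n = 4) in Low samples, where no value exceeded background, and was at least 2.14-fold higher in High (adjusted p = 1e-05). *Fgl2*, *Cd69* and *Tnfsf10* were likewise detected in all 4 High and no Low sample, and the first pair were at least 3.00-fold and at least 1.04-fold higher, while no bound could be given for *Tnfsf10*. The others called higher were *Cd74* at 2.27 and *Ly6a* at 2.09 on the log2 scale, detected in 3 and 2 of 4 Low samples, of which CD74 is the chaperone of MHC class II. *Casp4* (-1.34) and *Fcgr1* (-1.09) were called lower, the latter encoding the high-affinity IgG receptor. In Low against adult, *Ly6a* was called higher (1.33 on the log2 scale, adjusted p = 0.0013) and *Ccl5*, detected in 1 of 4 Low samples, lower (-1.14), 13.3% of the list beside 10.8% of the panel. *Ly6a* was detected in 2 of 4 Low samples and no adult sample, so no fold bound is given for it. In High against adult 5 of the 15 were called higher and 1 lower, beside 36.9% of the panel called.

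The summed normalized value of markers of some other cell types was also higher in the P-ERK1/2 High group, and that of others was not or overlapped with Low. These sums include values below background, and the background level was highest in Low samples. Where few or no markers were detected in Low samples, the order of High and Low was not established at this depth. The summed level of 16 T and NK cell markers was 452 to 1325 in High, 265 to 393 in Low and 233 to 455 in adult samples, with 11 of the 16 above background in at least 1 High sample, 0 in any Low sample and 1 in any adult sample, and *Cd8a*, *Cd6*, *Klrb1*, *Klrk1* and *Gzma* in no High sample. Endothelial markers summed to 622 to 1257 in High, 207 to 312 in Low and 287 to 413 in adult samples, with 5 of 6 above background in at least 1 High sample and *Tie1* in none. In any Low sample 1 of the 6 was above background, and in any adult sample 4. The 5 astrocyte markers summed to 1216 to 1913, 522 to 722 and 398 to 628 in the same order, with 4, 2 and 4 of them above background in at least 1 sample. For border macrophages and monocytes the 6 markers summed to 268 to 537, 134 to 213 and 163 to 300, with *Ms4a4a*, *Cd209e* and *Marco* above background in no High sample. In any Low sample 0 of these 6 were above background, and in any adult sample 1. Of these markers, 4 of 16, 4 of 6, 2 of 5 and 2 of 6 were called higher in High than in Low and 0 lower, beside 28.2% of the panel called higher, and the T and NK cell sums of High and adult samples overlapped. The 5 B cell markers summed to 76.0 to 129, 105 to 136 and 52.4 to 141, the 9 oligodendrocyte markers to 314 to 454, 406 to 512 and 339 to 556, and the 7 neutrophil markers to 360 to 949, 434 to 524 and 693 to 1156. The 8 neuronal markers summed to 303 to 511, 230 to 312 and 217 to 284, so High samples lay above all adult samples but overlapped with Low. Of these 8, 2 were called higher and 2 lower in High than in Low, beside 28.2% and 9.61% of the panel. The excluded adult sample 11 read 871 for the T and NK cell, 765 for the endothelial, 1947 for the astrocyte and 422 for the neuronal markers, within or above the range of High samples, but 185 for the border macrophage and monocyte markers, within the range of adult samples. The part of these cell types in the differences of *Cxcl9*, *Gbp2*, *Irf4* and the RNA sensors was not tested.

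The balance of higher and lower genes depended on the scaling, whereas *Ifih1* and *Ddx58* were called higher in High than in Low under each scaling tried. Median-of-ratios scaling shifted the median of all genes in High against Low from 0.26 to -0.01 and gave 3 higher and 3 lower of the 26 genes, beside 175 higher and 123 lower on the panel in place of 217 and 74. Quantile normalization gave 3 higher and 5 lower, beside 151 and 142 on the panel. The genes called lower under both were *Irf1*, *Irf3* and *Psmb8*, joined under quantile normalization by *Ifnar2* and *Rsad2*. In High against adult, where the deposited scaling gave 225 higher and 59 lower genes on the panel and 8 and 2 of the 26, median-of-ratios scaling gave 160 and 120 with 4 and 5, and quantile normalization 143 and 140 with 5 and 5. In Low against adult the panel went from 62 higher and 21 lower to 49 and 27 or 47 and 32. Counts without any scaling, which carry the difference in depth, made *Ifnar2*, *Irf1*, *Irf3*, *Psmb8* and *Rsad2* higher in High than in Low, at 0.68 to 0.99 on the log2 scale.

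**Figure D4:**
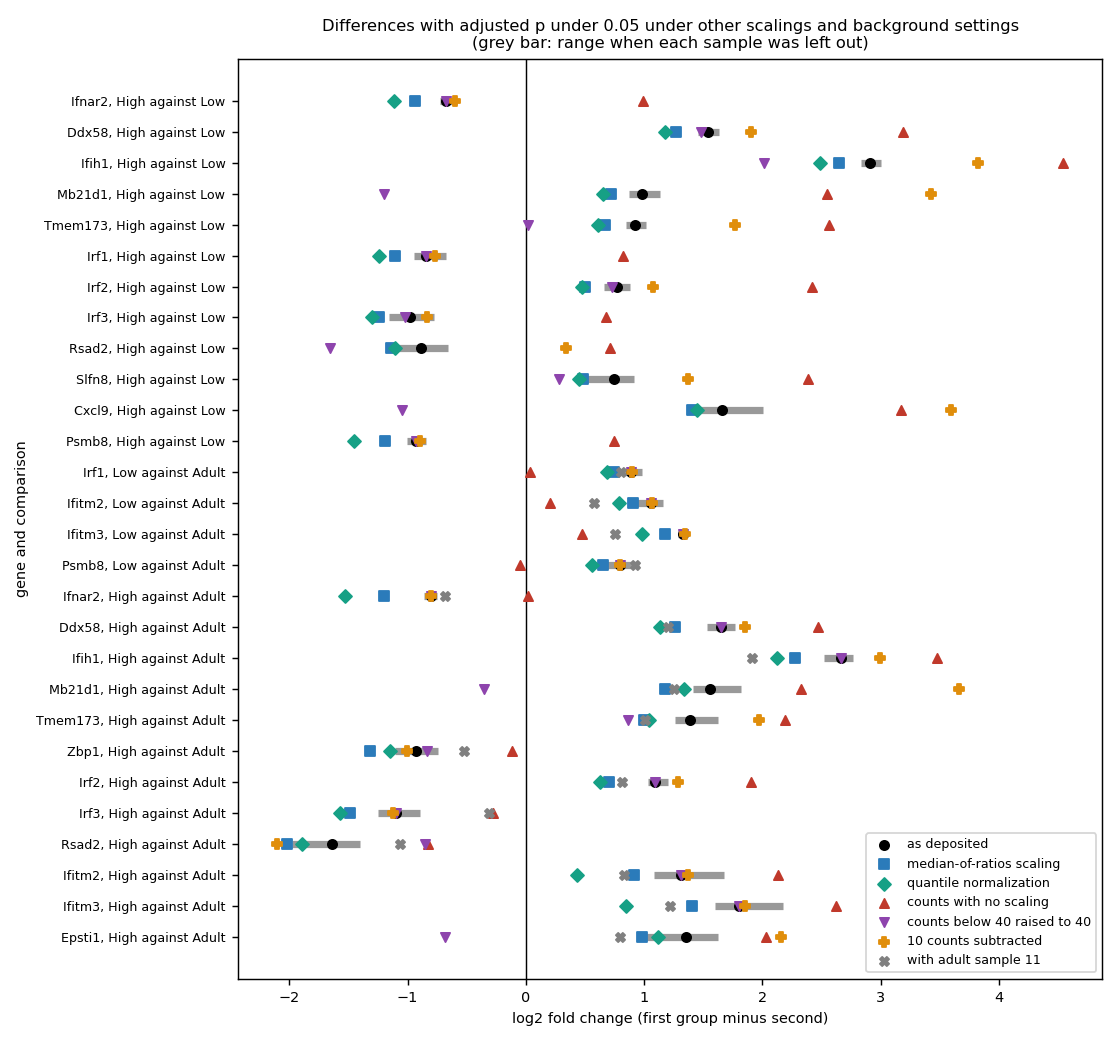
Log2 fold change (horizontal axis) of the 28 gene differences with an adjusted p under 0.05 (vertical axis), with the deposited values, under 5 other scalings and background settings, and with adult sample 11 included. Grey bars span the values when each sample was left out. *Ifih1* and *Ddx58* stay right of 0 under every setting drawn, and *Mb21d1*, *Cxcl9* and *Epsti1* cross it when low counts are raised to 40.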

How the data were processed

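RNA of fixed and sorted microglia was measured on a NanoString nCounter panel of 770 genes in 12 samples. The deposited values, a signal per gene, had been normalized by the authors in nSolver. Per the deposited table this was 1 factor per sample, set by the geometric mean of 13 housekeeping genes (172.72 or 172.73 in every sample), with no background subtraction. Other steps and any nSolver version are not given in the sources used here. Of its 784 rows, 14 were control probes listed as counts, which gave each sample's background and were left out of the tests. Dividing each sample by its smallest step returned counts that were whole to within 0.1 for 99.8% of values, and depth was summed from these. No column was left unmapped. The excluded adult sample 11 entered 1 alternative only.

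The groups were compared in pairs with limma 3.58.1 (lmFit, eBayes; R 4.3.3) on log2(value + 1) with Benjamini-Hochberg adjustment over 770 genes, and tables were made with Python 3.11.15, pandas 2.3.3 and numpy 2.4.6. All 26 genes were named, as were the members of 2 pathway lists called in P-ERK1/2 High against Low or in Low against adult. A list member called only in High against adult was counted but not named. The genes, lists and tests were chosen with earlier results of these data known. Tested on simulated data of 770 genes with 200 changed by 2 on the log2 scale, the fit recovered 99.5% in P-ERK1/2 High against Low, 97.5% in Low against adult and 100% in High against adult, with 2, 1 and 3 false calls. Alternatives were other pseudocounts (0.1 and 20), a filter at a mean value of 50, median-of-ratios, quantile and no scaling, a floor of 40 counts, subtraction of 10 counts, a spread shared by the 11 kept samples, a plain test, the adjusted p and leaving out each sample. Promoter windows came from RefSeq (GRCm38.p6), with 24 genes matched by current symbol and 2 by synonym (*Mb21d1* as *Cgas*, *Tmem173* as *Sting1*), and 3 genes had no window in the table. Some panel genes of the pathway are not reported here.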

Additional observations from a re-analysis of the deposited data

Results flagged for a closer look

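Among the 52 groups of 4 samples tested for a sample far from the others, 3 held one, and chance gives about 1 in 20. *Oas1g* read 45.1 in P-ERK1/2 Low sample 12, below background there, against 21.0 to 24.1 in the other Low samples. *Cxcl10* read 41.0 in the same sample, also below background, against 61.0 to 64.2. *Psmb8* read 635 in Low sample 6, against 512 to 522 in the other Low samples.

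The excluded adult sample 11 entered no group, and 6 of the 26 genes exceeded 2 times the highest kept adult sample in it. These were *Ifitm3* at 2342, *Ifitm2* at 1319, *Ifih1* at 704, *Ddx58* at 443, *Tmem173* at 152 and *Epsti1* at 45.0. For *Ifih1*, *Ddx58* and *Epsti1* the value lay above all 4 P-ERK1/2 High samples, and for *Tmem173*, *Ifitm2* and *Ifitm3* within their range.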

How the results depend on the processing

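With the deposited scaling 3, 2 and 8 of the 26 genes were called higher and 0, 0 and 2 lower in P-ERK1/2 High against Low, Low against adult and High against adult, and 291, 83 and 284 genes on the panel. Leaving out each sample gave 3 to 5 higher and 0 to 2 lower in High against Low, with 5 higher without High sample 7 or without Low sample 6. It gave 1 to 3 higher and 0 to 1 lower in Low against adult, and 6 to 8 higher and 1 to 4 lower in High against adult, with 4 lower without adult sample 4 and 1 lower without High sample 5, adult sample 1 or adult sample 10. In Low against adult, 1 was higher without Low sample 12 or adult sample 10, 3 without adult sample 1, and 1 was lower without adult sample 4. The panel counts were then 235 to 310, 75 to 95 and 225 to 303.

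Counts with no scaling gave 21 higher in High against Low, 0 higher and 7 lower in Low against adult and 0 lower in High against adult, with 596 and 240 panel genes in the first pair of comparisons. Under them *Ifnar2* (0.99), *Irf1* (0.82), *Irf3* (0.68), *Rsad2* (0.71) and *Psmb8* (0.74) turned positive in High against Low, *Psmb8* turned to -0.052 in Low against adult and *Ifnar2* to 0.019 in High against adult. With 10 counts subtracted, 9 were higher in High against Low, where *Rsad2* turned to 0.34, and 1 was lower in Low against adult, with 149 panel genes. With a floor of 40 counts, 11 were lower in High against Low and 5 higher and 1 lower in High against adult. *Mb21d1* (-1.20) and *Cxcl9* (-1.045) turned in High against Low, and *Mb21d1* (-0.355) and *Epsti1* (-0.69) in High against adult. By construction the floor, multiplied by unequal factors, raises shallow samples most.

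Median-of-ratios scaling gave 3 lower in High against Low, 1 higher in Low against adult, and 4 higher and 5 lower in High against adult. Quantile normalization gave 5 lower, 0 higher, and 5 higher and 5 lower in the same order. A pseudocount of 20 gave 5 higher and 1 lower, and a mean value of at least 50 gave 1 lower, in High against adult. A spread shared by 11 samples gave 1 higher in Low against adult. The plain test gave 4 higher and 0 lower in High against adult, and 189, 54 and 173 panel genes. With adult sample 11, 0 were higher in Low against adult (34 panel genes), and 1 was higher and 0 lower in High against adult (49 panel genes). The causes of the changes with scaling, sample 11 and left-out samples were not tested.

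Of the 28 gene differences with an adjusted p under 0.05, 11 changed sign under at least 1 alternative, as did 45 of the 50 others. A count model was not run on the recovered counts. No paired analysis was run, because the labels do not say whether High and Low samples came from the same mice. Depth limits the P-ERK1/2 Low group most, in which 10 of the 26 genes were above background in no sample.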
